A study of Mus musculus with 82 samples.

Results

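The comparison set 4T1 against 2153, 2 mouse mammary tumour models of the BALB/c strain. The members were the libraries whose column in the deposited count table begins with either model's name, 5 libraries of 4T1 and 7 of 2153, so 12 of the 82 libraries in the series. All 12 are labelled as untreated mammary tumours, and RNA from cryopreserved, homogenized tumour pieces was made into TruSeq mRNA libraries. The other 70 libraries, of 11 further models, entered the estimate of the spread and the comparisons of a level with that of other models. The labels state neither passage nor driver mutation, the ages of the animals nor whether libraries came from separate animals, so a p-value here speaks of how much these libraries vary, and part of that may be technical.

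Neutrophils are short-lived white cells that the bone marrow releases under granulocyte colony-stimulating factor (G-CSF, the product of Csf3) and that tissues draw in with chemokines which bind the receptor CXCR2. They carry their weapons in granules filled in order during maturation, primary granules first, then secondary and tertiary ones. 4T1, a cell line derived from a BALB/c mammary carcinoma, is known for metastasis and for a strong rise of neutrophils in the tumour-bearing mouse.

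Library totals, in units of 1e6 counts, ran between 76.7 and 108.6 in 4T1 and between 29.4 and 119.8 in 2153. Levels are CPM, counts scaled to 1e6 per library, and differences are log2 values, 4T1 minus 2153, with the standard error of edgeR's quasi-likelihood test and p-values adjusted over all 22847 genes tested by the Benjamini-Hochberg method, called at 0.05. Of those genes 12023 were called (52.6%), 5807 higher in 4T1 (25.4%) and 6216 lower (27.2%). The libraries of the models did not overlap for 41.2% of genes, with 4T1 above for 20.9% and below for 20.3%. These shares are the background for every count that follows, and the median difference over all genes was -0.01.

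The 2153 libraries carry numbers in their labels that fall apart, 4 below 3000 and 3 above, while all 4T1 libraries are numbered above 3000. What the number stands for is not labelled. Within 2153, 279 genes differed between the low and high numbers (1.22%), 136 higher in the low-numbered libraries (0.595%) and 143 lower (0.626%). All low-numbered libraries lay above all high-numbered ones for 11% of genes, and below them for 16.6%. Against the high-numbered 2153 libraries alone 47.4% of genes were called (22.5% higher in 4T1, 24.9% lower), and against the low-numbered ones alone 44.6% (21.2% higher, 23.4% lower). Neutrophil genes divided along the same line, so their values are given with it.

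By the median over neutrophil markers both models ranked at the top of the series, but 2153 did so through its low-numbered libraries. Over 18 marker genes, the median log2 CPM of a library lay between 1.13 and 2.11 in 4T1 and between -0.13 and 3.42 in 2153, and the model medians, 1.18 for 4T1 and 2.57 for 2153, took ranks 2 and 1 of the 13 models. The 4 low-numbered 2153 libraries lay between 2.57 and 3.42, above every 4T1 library. The 3 high-numbered ones were at 0.27, 0.35 and -0.13, below every 4T1 library and below the median of the model 2224, which was 0.99. Single libraries of other models reached these levels. Libraries of the model 2208 at 2.20 and 2.64 lay above every 4T1 library, and the highest 2224 library, at 1.77, lay within the 4T1 range. No marker was at 0 throughout either model. In summed CPM, 4T1 libraries held 108.8 to 208.3 CPM, low-numbered 2153 libraries 246.7 to 460.8 CPM and high-numbered ones 96.8 to 118.4 CPM. By that sum the models took ranks 4 and 3, behind MMTV-PYMT with a median of 1299.96 CPM and 9263 with 302 CPM. The median of Ltf, lactoferrin, alone was 961 CPM in the MMTV-PYMT libraries. The markers were chosen with earlier results of these data known. By their median, though not by their sum, the name neutrophil-rich fitted 4T1 and the low-numbered 2153 libraries best among the models. The data went against the name for the high-numbered ones, which lay about the median of the model 2208, 0.35, or below it. In bulk tumour RNA, fewer cells of a type and less RNA per cell cannot be told apart.

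**Figure D1:**
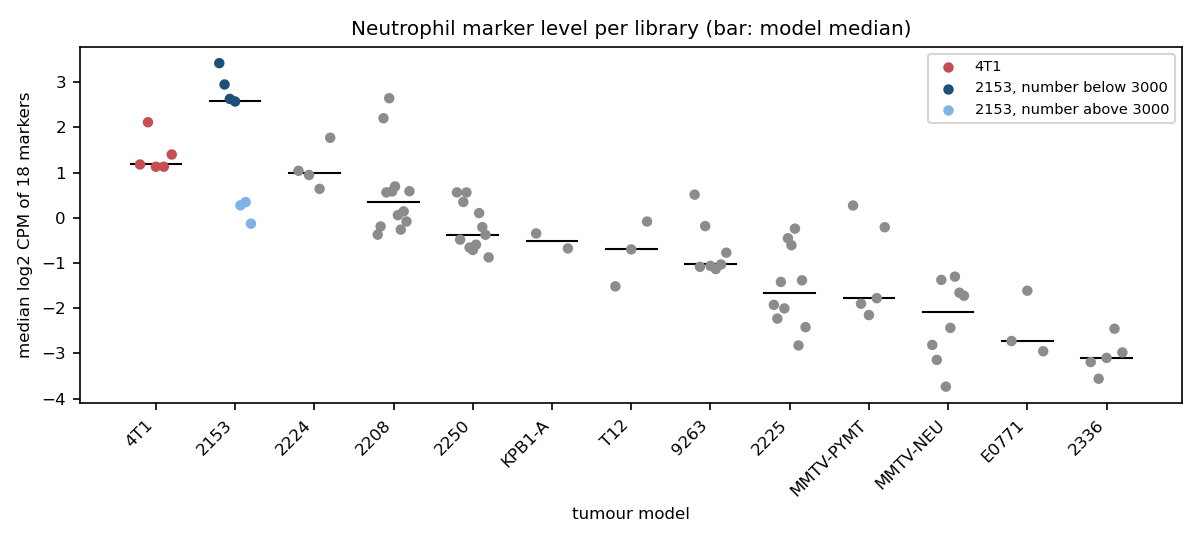
Median log2 CPM over 18 neutrophil marker genes in each library, by model, with models ordered along the axis and 2153 libraries marked by their number. The 4T1 libraries lie between 1.13 and 2.11, and the 2153 libraries fall into 4 from 2.57 upward and 3 from 0.35 downward.

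Core neutrophil genes did not separate the models as a whole. S100a8, a subunit of the calprotectin that fills neutrophil cytosol, stood at 12.7, 34.5, 19.4, 24.7 and 30.4 CPM in the 4T1 libraries, against 13.8 to 98.7 CPM with a median of 47.5 CPM in 2153. The groups overlapped: every low-numbered 2153 library was above every 4T1 library, at 47.5 to 98.7 CPM, and the high-numbered ones, at 13.8 to 19 CPM, lay within the 4T1 range. The log2 difference was -0.93 ± 0.56 (adjusted p = 0.156), and it was -1.49 (adjusted p = 0.0382) against the low-numbered and 0.51 (adjusted p = 0.561) against the high-numbered libraries. Ngp, neutrophilic granule protein, showed the widest gap within 2153. It measured 2.83, 4.20, 3.63, 2.44 and 3.10 CPM in the 4T1 libraries, against 9.33 to 16.2 CPM in the low-numbered and 0.227 to 0.546 CPM in the high-numbered 2153 libraries. All 4T1 libraries lay in the empty space between. The difference was -1.12 ± 0.96 (adjusted p = 0.338) over all libraries, and 3.13 (adjusted p = 0.0417) against the high-numbered libraries. Ly6g, the surface protein that defines mouse neutrophils, was low throughout, at 0.154 to 0.240 CPM in 4T1 and 0.0175 to 1.33 CPM in 2153, with a difference of -1.26 ± 0.81 (adjusted p = 0.191) whose sign also turned with the library number, to 1.51 (adjusted p = 0.23) against the high-numbered libraries. S100a9, Retnlg, Mmp8, Camp and Csf3r, the G-CSF receptor, likewise stood below 2153 over all libraries and above its high-numbered libraries, by 0.72, 2.34, 1.40, 1.68 and 0.11, with no call in either comparison.

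The first 150 bases upstream of the S100a8 start, chr3:90668921-90669070 on the plus strand (RefSeq, GRCm38.p6), are shown because this gene anchors the neutrophil measurement. Capitals mark 2 overlapping matches, one on each strand, to the letters TATANA, the first of which starts 32 bases upstream of the start.
S100a8: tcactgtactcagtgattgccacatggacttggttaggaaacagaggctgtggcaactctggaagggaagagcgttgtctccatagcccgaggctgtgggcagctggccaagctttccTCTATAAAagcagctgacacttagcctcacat
Of 32851 mouse promoters of that length, 13.3% hold such a match on either strand.

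Across the 3 lists of neutrophil genes, 51 members passed the filter on low counts and 11 were called higher in 4T1, 4 lower and 36 neither, with a median difference of -0.25. These 21.6% and 7.84% compare with 25.4% and 27.2% of all genes. Against the high-numbered 2153 libraries 19 were higher and 3 lower, with a median of 1.51, and against the low-numbered ones 8 were higher and 8 lower, with a median of -0.75. For 41 of the 51, or 80.4%, every low-numbered 2153 library lay above every high-numbered one, against 11% of all genes, and for 0 of the 51 the order was the opposite. Only Pilra, an inhibitory receptor of myeloid cells, was called between the low-numbered and high-numbered libraries in edgeR's test (1.39 on the log2 scale, adjusted p = 0.0407). That test took its spread from all 82 libraries, and some other models varied widely, with summed neutrophil markers of 56.0 to 2498 CPM in MMTV-NEU. The lack of calls therefore does not show that the 2 sets of 2153 libraries were alike.

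The members that did differ between the models went in both directions: in the list of secondary and tertiary granule genes 5 of 15 tested were higher in 4T1 and 2 lower, in that of surface and mature genes 4 of 30 were higher and 2 lower, and of 6 primary granule genes 2 were higher. Padi4 encodes the enzyme that turns arginine into citrulline in histones, a step of neutrophil extracellular trap formation. It reached 483, 339, 478, 447 and 443 CPM in the 4T1 libraries, against 11.6 to 17.8 CPM with a median of 15.5 CPM in 2153. The ranges lay far apart, the difference was 4.87 ± 0.41 (adjusted p = 3.81e-17), and the highest mean of any other model was 38.3 CPM. Every 4T1 value of Padi4 exceeded the summed level of the 18 neutrophil markers in 4T1, 108.8 to 208.3 CPM. Which cells made the Padi4 message was not tested. Mmp9, the gelatinase of tertiary granules that macrophages and tumour cells also make, measured 149.8, 231, 141, 114 and 263 CPM in the 4T1 libraries, against 8.40 to 35.0 CPM with a median of 29.7 CPM in 2153. It did not overlap either (3.01 ± 0.65, adjusted p = 6.28e-05). Trem1, a receptor that amplifies inflammation, rose by 1.91 ± 0.36 (adjusted p = 5.57e-06), and Ctsg, the primary-granule protease cathepsin G, by 4.70 ± 0.84 (adjusted p = 1.84e-06) at no more than 2.92 CPM. Cybb and Itgam, which other myeloid cells share, rose by 2.20 and 1.95.

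Lower in 4T1 were Lcn2, Pglyrp1, Asprv1 and Cxcr2. Lcn2 (lipocalin 2, which withholds iron from bacteria and is also made by epithelium) measured 427, 757, 346, 479.7 and 467 CPM in the 4T1 libraries, against 2444 to 4248 CPM with a median of 3854 CPM in 2153. The ranges did not overlap (-2.81 ± 0.37, adjusted p = 6.63e-10). Pglyrp1, a peptidoglycan-binding granule protein, stood at 2.90 to 5.12 CPM in 4T1 and 61.9 to 91.0 CPM in 2153 (-4.19 ± 0.48, adjusted p = 1.23e-11). Lcn2 was higher in the low-numbered 2153 libraries, at 3854 to 4248 CPM, than in the high-numbered ones, at 2444 to 3165 CPM, and 4T1 lay below both. Pglyrp1 overlapped between them, at 61.9 to 84.2 CPM in the low-numbered and 67.8 to 91.0 CPM in the high-numbered 2153 libraries. Cxcr2, the chemokine receptor that brings neutrophils into tissue, was at 4.24, 8.59, 4.12, 3.99 and 6.06 CPM in the 4T1 libraries, against 8.35 to 30.8 CPM with a median of 17.3 CPM in 2153. One 4T1 library lay just above the lowest 2153 library, and the call (-1.62 ± 0.51, adjusted p = 0.0051) was lost against the high-numbered libraries (-0.91, adjusted p = 0.216).

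**Figure D2:**
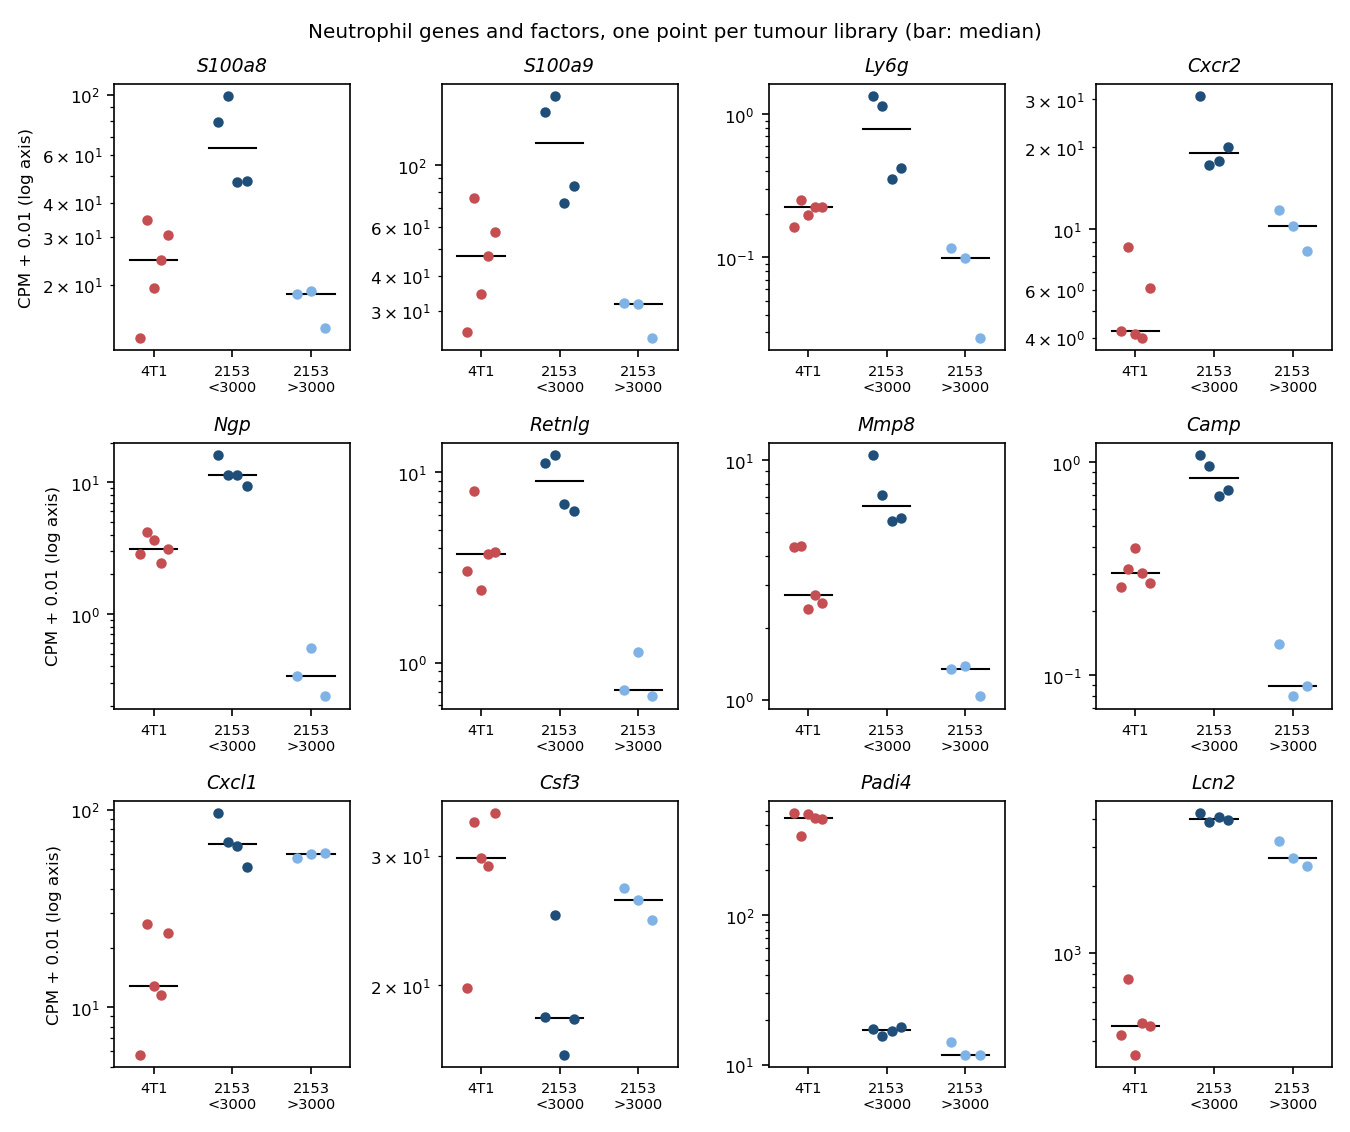
Levels of neutrophil genes in each library, in CPM on a log axis, with 4T1 left of 2153 in each panel and 2153 libraries marked by number. For S100a8 the 4T1 libraries, at 12.7 to 34.5 CPM, lie among the 2153 libraries, while for Padi4 they lie far above and for Lcn2 far below them.

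Of the signals that raise and draw neutrophils, Csf3 overlapped between the models and the chemokine Cxcl1 did not. Csf3 measured 19.8, 33.3, 29.8, 29.1 and 34.3 CPM in the 4T1 libraries, against 16.1 to 27.1 CPM with a median of 24.5 CPM in 2153. The groups overlapped through one 4T1 library (0.40 ± 0.54, adjusted p = 0.55), and the highest mean of any other model was 5.97 CPM. A fit of the 12 libraries alone, with its smaller spread, called a difference of 0.44 (adjusted p = 0.0288). Cxcl1, a CXCR2 ligand, measured 5.73, 26.3, 12.9, 11.6 and 23.8 CPM in the 4T1 libraries, against 51.3 to 96.4 CPM with a median of 60.7 CPM in 2153. The ranges did not overlap (-2.03 ± 0.40, adjusted p = 1.24e-05). Cxcl2, another CXCR2 ligand next to it on chromosome 5, measured 3.41, 10.3, 4.82, 6.08 and 7.25 CPM in the 4T1 libraries, against 1.08 to 16 CPM with a median of 1.84 CPM in 2153. It did not pass the test over all libraries (0.47 ± 0.50, adjusted p = 0.45), but passed at 2.24 (adjusted p = 0.00187) against the high-numbered libraries, and at 1.24 (adjusted p = 0.0285) without 2153 replicate 2, the library at 16 CPM.

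The promoters of these chemokines are shown beside that of Csf2 because the 3 genes moved differently. Each is the 150 bases upstream of the start (RefSeq, GRCm38.p6), and capitals mark a match to the NF-kappaB consensus. They are chr5:90891095-90891244 (plus strand) for Cxcl1, chr5:90903749-90903898 (plus strand) for Cxcl2 and chr11:54249900-54250049 (minus strand) for Csf2.
Cxcl1: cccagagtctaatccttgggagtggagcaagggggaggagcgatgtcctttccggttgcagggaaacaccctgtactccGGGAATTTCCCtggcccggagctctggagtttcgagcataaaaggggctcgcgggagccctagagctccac
Cxcl2: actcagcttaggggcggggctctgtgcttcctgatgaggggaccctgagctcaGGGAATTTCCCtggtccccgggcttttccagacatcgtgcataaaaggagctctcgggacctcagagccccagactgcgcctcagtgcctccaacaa
Csf2: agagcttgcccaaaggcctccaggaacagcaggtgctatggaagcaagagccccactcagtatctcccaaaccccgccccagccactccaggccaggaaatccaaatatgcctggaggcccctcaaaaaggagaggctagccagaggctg
The same 11 letters were matched in Cxcl1, starting 71 bases upstream of the start, and in Cxcl2, starting 97 bases upstream, and no match was found in these letters of Csf2. Of 32851 promoters, 4.60% hold such a match on either strand.

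Csf2, which encodes GM-CSF, a growth factor of granulocytes and macrophages, measured 1.13, 0.934, 1.65, 2.26 and 2.44 CPM in the 4T1 libraries, against 0 to 0.266 CPM with a median of 0.0945 CPM in 2153. The ranges lay apart (3.76 ± 0.61, adjusted p = 2.6e-07). Csf1, the growth factor of macrophages, measured 267, 170.2, 322, 259 and 261 CPM in the 4T1 libraries, against 42.1 to 96.3 CPM with a median of 56.7 CPM in 2153, again with no overlap (1.97 ± 0.25, adjusted p = 1.85e-10). Of 12 tested colony-stimulating factors and receptors, 8 were higher in 4T1, the receptors Csf1r, Csf2ra and Csf2rb among them, and 1 lower, Kitl, the ligand of the KIT receptor (-1.71). Of 17 tested genes of the IL-1 and IL-17 axis, 9 were higher and 2 lower. Il1b, an inflammatory cytokine of myeloid cells, was at 42.3 to 81.1 CPM in 4T1 and 9.44 to 40.8 CPM in 2153 (1.66 ± 0.42, adjusted p = 0.000492), and Il18 at 5.83 to 7.63 CPM in 4T1 and 0.189 to 0.632 CPM in 2153 (4.07 ± 0.46, adjusted p = 6.04e-12). Tnf, another such cytokine, went the other way, at 1.53 to 4.40 CPM in 4T1 and 11.3 to 17.8 CPM in 2153 (-2.31 ± 0.39, adjusted p = 5.29e-07). In the list of 19 tested neutrophil attractants, which holds these, 6 were higher and 3 lower. Against the high-numbered libraries 10 were higher, and against the low-numbered ones 3.

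Macrophage genes were higher in 4T1. Of 24 tested, 17 were higher and 0 lower, with a median difference of 1.79 against -0.01 over all genes. C1qa, a complement subunit that tissue macrophages make, measured 601, 358, 707, 529 and 693 CPM in the 4T1 libraries, against 60.1 to 130.5 CPM with a median of 88.8 CPM in 2153 (2.61 ± 0.49, adjusted p = 5.81e-06). Csf1r, the receptor for the Csf1 product, measured 434, 237, 347, 253 and 324 CPM in the 4T1 libraries, against 44.7 to 101 CPM with a median of 60.1 CPM in 2153 (2.32 ± 0.42, adjusted p = 2.5e-06). Neither gene overlapped between the models. Of 14 tested monocyte and macrophage attractants, 8 were higher, with Ccl12 at 3.08 and Ccl2 at 1.37, and 2 were lower. The higher count was 6 against the high-numbered and 4 against the low-numbered 2153 libraries. One of the lower ones was Ccl20, a ligand of CCR6, at 0 to 0.165 CPM in 4T1 and 2.00 to 2.79 CPM in 2153 (-5.88 ± 0.71, adjusted p = 7.01e-11). Of 18 tested genes linked to suppressive myeloid cells, 7 were higher and 0 lower, the NADPH oxidase subunits Ncf1, Ncf4 and Cybb among them, while Arg1 and Nos2 did not pass the test.

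Genes of natural killer and other cytotoxic lymphocytes were higher in 4T1 in 15 of 17 tested and lower in 0, with a median difference of 3.14. Prf1, the pore-forming perforin, measured 16.2, 12.5, 19.4, 38.7 and 14.2 CPM in the 4T1 libraries, against 0.0590 to 0.708 CPM with a median of 0.190 CPM in 2153 (5.82 ± 0.76, adjusted p = 6.68e-10). Gzmb, the protease granzyme B that enters through the pore, measured 7.0, 6.48, 23.8, 25.1 and 13.6 CPM in the 4T1 libraries, against 0.0944 to 0.999 CPM with a median of 0.253 CPM in 2153 (5.13 ± 0.91, adjusted p = 1.61e-06). Every 4T1 library was above every 2153 library for both. The granzyme cluster on chromosome 14 followed: Gzmf was at 62.0 to 189.7 CPM in 4T1 and 0.0349 to 1.30 CPM in 2153 (7.92 ± 1.34, adjusted p = 1.08e-06), and Gzmc and Gzmd rose by 5.30 and 5.42. These granzymes are near copies, so reads may be split among them and the value of any single one is uncertain.

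Most T cell genes were also higher, at much lower levels. Of 17 tested, 13 were higher and 2 lower, with a median of 2.42. The higher count was 14 against the high-numbered and 10 against the low-numbered 2153 libraries. For 7 of the 17 every 4T1 library lay above every 2153 library, against 20.9% of all genes. Summed over the list, the median level was 26.6 CPM in 4T1 and 33.4 CPM in 2153. Cd3e, a subunit of the T cell receptor complex, measured 0.576, 0.721, 4.05, 1.14 and 1.18 CPM in the 4T1 libraries, against 0.0698 to 0.307 CPM with a median of 0.158 CPM in 2153 (3.19 ± 0.80, adjusted p = 0.000507). Cd8a, of the cytotoxic T cell coreceptor, measured 0.701, 1.04, 5.63, 0.901 and 0.558 CPM in the 4T1 libraries, against 0.0236 to 0.741 CPM with a median of 0.0633 CPM in 2153, and the groups overlapped (2.87 ± 0.86, adjusted p = 0.00347). The call for Cd8a was lost without 4T1 replicate 3 (1.74, adjusted p = 0.0898) and against the low-numbered 2153 libraries (2.11, adjusted p = 0.0759). The 2 lower members were Lck, the kinase of the T cell receptor, at 2.84 to 6.32 CPM in 4T1 and 6.55 to 23.5 CPM in 2153 (-2.01 ± 0.29, adjusted p = 1.42e-08), and Cd5, at 0.269 to 1.67 CPM in 4T1 and 4.87 to 10.6 CPM in 2153 (-3.45 ± 0.43, adjusted p = 2e-10). So 2153 had more of these T cell messages while its Cd3e stayed at or below 0.307 CPM. B and plasma cell genes differed little, with 1 of 13 tested higher and 1 lower (up to 2 each when single libraries were left out, and 3 higher against the high-numbered 2153 libraries), and mast cell genes such as Cpa3 (3.30) and Tpsb2 (3.21) were among 8 of 12 tested eosinophil and mast cell genes that were higher. In that list of 12, 1 was lower. The higher count was 3 against the high-numbered 2153 libraries alone and 7 against the low-numbered ones.

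Immune checkpoint genes were higher in 4T1 in 14 of 16 tested and lower in 1, with a median of 2.41. Tigit, an inhibitory receptor of T and natural killer cells, measured 4.25, 2.5, 4.99, 3.69 and 3.22 CPM in the 4T1 libraries, against 0.0126 to 0.189 CPM with a median of 0.0893 CPM in 2153 (5.43 ± 0.63, adjusted p = 2.02e-11). Cd274, which encodes PD-L1, measured 18.1, 25.5, 53.2, 23.6 and 23.2 CPM in the 4T1 libraries, against 2.04 to 32.4 CPM with a median of 5.47 CPM in 2153 (1.46 ± 0.46, adjusted p = 0.0056). Tigit was apart in every library, but Cd274 overlapped with 2 low-numbered 2153 libraries. It was no longer called against the low-numbered ones (0.79, adjusted p = 0.176) or in a fit of the 12 libraries alone (1.48, adjusted p = 0.0752), and it differed within 2153 by 2.91 (adjusted p = 0.00684). The lower gene was Cd200, a surface protein that restrains myeloid cells through its receptor. It measured 10.4, 14.9, 10.2, 10.7 and 9.74 CPM in the 4T1 libraries, against 134 to 329 CPM with a median of 157 CPM in 2153 (-4.07 ± 0.34, adjusted p = 1.98e-17), while Cd200r1, that receptor, was higher by 1.87.

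Antigen presentation was higher in 4T1 by both routes. Of 10 tested class II genes, which load peptides for CD4 T cells in antigen-presenting cells, 9 were higher and 0 lower, with a median of 3.26. Cd74, the invariant chain, measured 918, 1005, 2212, 562 and 1252 CPM in the 4T1 libraries, against 49.97 to 217 CPM with a median of 67.8 CPM in 2153 (3.52 ± 0.71, adjusted p = 2.2e-05), with no overlap. Of 14 tested class I genes, 13 were higher and 0 lower, with a median of 1.59, and Psmb10, an immunoproteasome subunit, rose by 2.61. Interferon response genes were higher in 12 of 24 and lower in 0, with a median of 0.86, and this count moved most with the library number. It was 22 against the high-numbered 2153 libraries, with a median of 2.31, and 3 against the low-numbered ones, with a median of 0.40. Leaving out 2153 replicate 5 or 7 gave 7, and leaving out 4T1 replicate 2 gave 6. Gbp2, a guanylate-binding protein that interferon induces, measured 80.7, 119, 332, 139 and 135 CPM in the 4T1 libraries, against 3.18 to 61.6 CPM with a median of 10.4 CPM in 2153 (3.35 ± 0.50, adjusted p = 2.4e-08). The ranges did not overlap, although within 2153 the low-numbered libraries were higher than the high-numbered ones by 2.90 (adjusted p = 0.0089).

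Stromal and contaminating cell types differed too, and their part in the differences above and below was not tested. The summed level of 8 macrophage markers was 1439 to 2537 CPM in 4T1 and 327 to 696 CPM in 2153, and that of 5 fibroblast markers 3413 to 5313 CPM in 4T1 and 912 to 1398 CPM in 2153. That of 6 T cell markers was 6.80 to 25.5 CPM in 4T1 and 1.24 to 3.98 CPM in 2153, and that of 4 endothelial markers 188.6 to 306 CPM in 4T1 and 88.5 to 133 CPM in 2153. That of 4 epithelial markers was 2440.2 to 2772 CPM in 4T1, below 3257 to 5429 CPM in 2153. None of these ranges overlapped, and no marker of these lists was at 0 throughout either model. Adipocyte markers, 3 in number, moved with the library number in the opposite sense to the neutrophil genes. They summed to 0.0647 to 12.9 CPM in 4T1, 0.0189 to 0.0723 CPM in the low-numbered and 1.32 to 2.72 CPM in the high-numbered 2153 libraries. Their part in the differences that move with the number was not tested. Skeletal muscle markers summed to 0.883 to 124 CPM in 4T1 and 0.413 to 13.6 CPM in 2153. Of 10 tested muscle genes 6 were higher, a count that was 2 against the high-numbered and 0 against the low-numbered 2153 libraries, 1 without 4T1 replicate 1, 2 without 2153 replicate 5 or 7 and 3 without 2153 replicate 1, 4 or 6. Of 6 tested red blood cell genes 5 were lower, a count that was 0 against the high-numbered libraries 2 without 2153 replicate 2 or 4T1 replicate 1, and 3 without 2153 replicate 1 or 4T1 replicate 3, 4 or 5. Hbb-bs, a haemoglobin chain, was at 35.6 to 60.3 CPM in 4T1 and 59.6 to 537 CPM in 2153 (-2.07 ± 0.82, adjusted p = 0.0286).

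Beyond the immune and stromal genes, the Fgf ligands that border each other on chromosome 7 were near 0 in 4T1 and high in 2153. Which cells made these messages, and those of the lists below, was not tested. Fibroblast growth factors bind tyrosine kinase receptors, and Fgf3 and Fgf4 are known as genes that mouse mammary tumour virus activates by inserting nearby. Fgf4 had 0, 0, 0, 0.0127 and 0 CPM in the 4T1 libraries, against 319 to 506 CPM with a median of 428 CPM in 2153. The 4T1 value is 1 count in 5 libraries, which puts the 2153 to 4T1 ratio at 205687 with an exact 95% interval of counting error of 36916 to 8124250. Fgf3 had 0 counts in 4T1 and 14.6 to 19.9 CPM in 2153, at least 2857-fold lower in 4T1 when its floor is taken as 3 counts over its 5 libraries. Fgf15, best known as a hormone of the gut, likewise had 1 count in 4T1, against 109 to 179.5 CPM in 2153. Of 16 tested ligands, 7 were lower, 2 higher and 7 neither.

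The 150 bases upstream of the Fgf4 start, chr7:144861236-144861385 on the plus strand (RefSeq, GRCm38.p6), are shown because this gene has the widest gap of all the named genes. Capitals mark overlapping matches to TATANA on both strands, the first starting 30 bases upstream.
Fgf4: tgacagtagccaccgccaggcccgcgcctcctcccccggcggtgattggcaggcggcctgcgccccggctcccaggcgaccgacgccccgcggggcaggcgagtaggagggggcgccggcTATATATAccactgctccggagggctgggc
The letters are those of the reference genome, not of either tumour.

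Many of the genes around them, though not all, were lower in 4T1 as well. The window was set at 3 Mb on each side of the Fgf3 start, but tested genes did not fill it evenly. Towards higher coordinates the furthest one, Mrgprf, lay 462.7 kb from that start, and most lay at lower coordinates than Fgf3. In this window 31 of 59 tested genes were lower in 4T1 (52.5%, against 27.2% of all genes). Another 11 were higher and 17 neither, with a median of -0.78. These values therefore speak mainly of the side of lower coordinates. For 28 of the 59, Fgf3, Fgf4 and Fgf15 among them, the mean in 2153 was the highest of the 13 models. The share of all genes for which this holds was not counted, so the 28 has no background. Ccnd1, cyclin D1, which drives cells out of G1, measured 1165, 849, 1113, 1058 and 1053 CPM in the 4T1 libraries, against 4322 to 7929 CPM with a median of 6919 CPM in 2153 (-2.64 ± 0.26, adjusted p = 3.87e-14). Ano1, a calcium-activated chloride channel, measured 95.8, 61.2, 47.9, 64.8 and 63.9 CPM in the 4T1 libraries, against 1238 to 2849 CPM with a median of 1503 CPM in 2153 (-4.65 ± 0.34, adjusted p = 5.9e-20). Shank2, a synaptic scaffold protein, measured 0.342 to 0.823 CPM in 4T1 and 70.3 to 149.9 CPM in 2153 (-7.85 ± 0.36, adjusted p = 1.93e-30). None of the 3 overlapped, and Fadd, Ppfia1, Tpcn2 and Cttn nearby were lower as well, at -2.55, -2.87, -3.04 and -1.11.

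**Figure D3:**
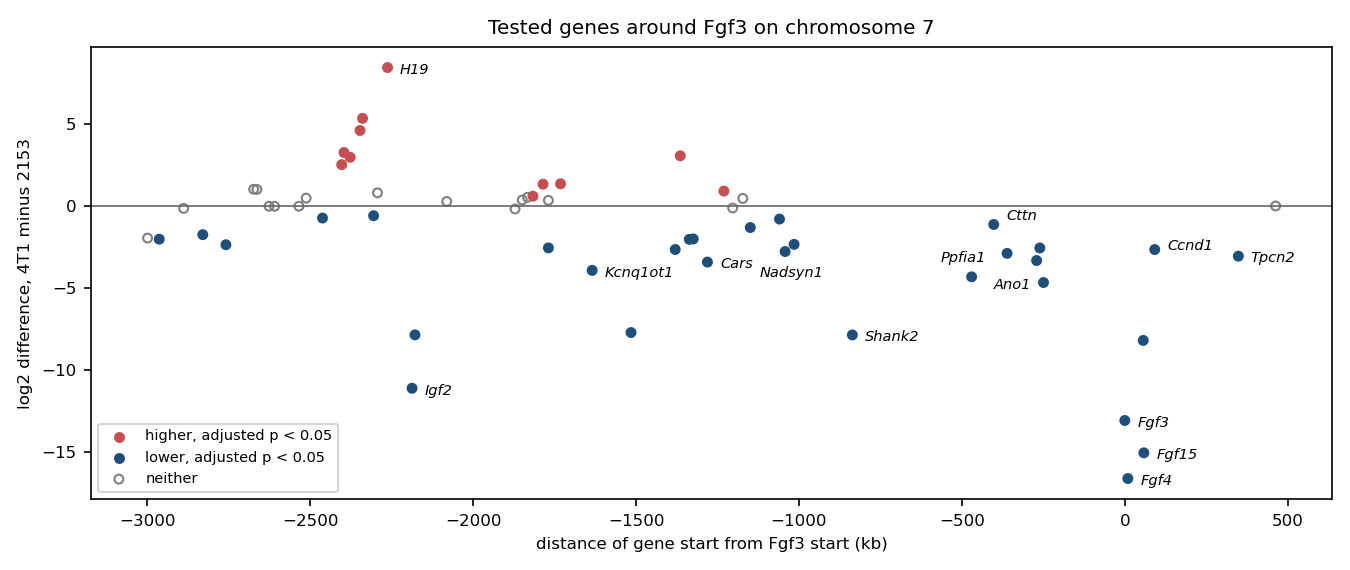
Log2 difference, 4T1 minus 2153, of each tested gene within 3 Mb of the Fgf3 start on chromosome 7, by distance from that start, with called genes marked. Towards higher coordinates the tested genes reach only to 462.7 kb. The 31 lower genes include a run on both sides of Fgf3 and Fgf4, whose points lie at the bottom.

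The receptors for these ligands differed in opposite directions. Fgfr1 measured 92.1, 123, 96.9, 81.1 and 90.9 CPM in the 4T1 libraries, against 1185 to 1522 CPM with a median of 1403 CPM in 2153 (-3.85 ± 0.27, adjusted p = 4.68e-21). Fgfr2 measured 109.6, 125, 61.2, 42.6 and 56.0 CPM in the 4T1 libraries, against 0.544 to 1.0 CPM with a median of 0.814 CPM in 2153 (6.65 ± 0.43, adjusted p = 2.39e-22). Neither overlapped between the models, and the order of the models was opposite for the 2 receptors. Of 23 tested receptors and feedback genes, 11 were lower and 6 higher. Etv5, a transcription factor that Fgf signalling induces, was at 85.4 to 102 CPM in 4T1 and 361 to 528 CPM in 2153 (-2.13 ± 0.20, adjusted p = 2.17e-15), while the phosphatase gene Dusp6 differed by -0.55.

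The imprinted neighbours Igf2 and H19 differed in opposite directions. Both lie in the window around Fgf3, at -2187 and -2263 kb from its start, and are among the lower and higher genes counted there. Igf2, a fetal growth factor, measured 1.84, 2.08, 3.13, 1.19 and 0.774 CPM in the 4T1 libraries, against 3525 to 4603 CPM with a median of 3919 CPM in 2153 (-11.11 ± 1.05, adjusted p = 8.49e-15). H19, the noncoding RNA expressed from the opposite parental copy, measured 2949, 1395, 1999, 2911 and 2441 CPM in the 4T1 libraries, against 0.746 to 21.4 CPM with a median of 4.55 CPM in 2153 (8.46 ± 0.92, adjusted p = 2e-12). Neither gene overlapped between the models. Igf2 overlaps Igf2os, and strand was not stated, so their reads cannot be told apart. Of 17 tested genes of the Igf axis 10 were higher and 2 lower, with Igfbp4, a binding protein that sequesters Igf, at 1139.8 to 1632 CPM in 4T1 and 69.9 to 134 CPM in 2153 (3.85 ± 0.39, adjusted p = 1.44e-13).

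Genes of cell division were lower in 4T1. Of 24 tested mitosis genes 23 were lower and 0 higher, with a median of -1.39, and of 24 DNA replication genes 22 were lower and 1, Gins2, higher (0.61). Of 18 tested DNA repair genes 13 were lower and 0 higher. The size of these differences moved with the library number. For 23 of the 24 mitosis genes and 24 of the 24 replication genes every low-numbered 2153 library lay below every high-numbered one, against 16.6% of all genes. The mitosis median was -1.65 against the high-numbered and -1.17 against the low-numbered libraries, with 24 and 21 genes lower, and the replication median -1.47 and -0.77, with 22 and 18 lower. Mki67, the marker of cycling cells, measured 195, 155, 233, 233 and 210.4 CPM in the 4T1 libraries, against 359 to 636 CPM with a median of 518 CPM in 2153 (-1.29 ± 0.24, adjusted p = 3.29e-06). Kif11, the spindle motor Eg5, was at 41.7 to 57.9 CPM in 4T1 and 223 to 339 CPM in 2153 (-2.46 ± 0.20, adjusted p = 1.31e-17), and Brca1, of homologous recombination, at 15.8 to 20.1 CPM in 4T1 and 53.2 to 80.9 CPM in 2153 (-1.86 ± 0.19, adjusted p = 2.66e-13). The ranges of all 3 were apart.

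Of 17 tested genes in the G1 checkpoint list 7 were lower and 3 higher, and the inhibitors of the cycle named here went both ways. Cdkn2a, whose products p16 and p19 restrain the cycle and stabilize p53, measured 0.336, 0.25, 0.269, 0.267 and 0.252 CPM in the 4T1 libraries, against 131 to 211 CPM with a median of 157 CPM in 2153 (-9.21 ± 0.60, adjusted p = 3.47e-22). Its neighbour Cdkn2b was at 0.675 to 1.47 CPM in 4T1 and 16.7 to 23.6 CPM in 2153 (-4.24 ± 0.42, adjusted p = 5.7e-14). Cdkn2c, another member of the same family on another stretch of chromosome 4, was higher, at 69.3 to 119.7 CPM in 4T1 and 17.8 to 28.6 CPM in 2153 (2.12 ± 0.20, adjusted p = 6.75e-15). Of 20 tested p53 genes and targets, 5 were higher and 4 lower, no larger shares than the 25.4% and 27.2% of all genes. Trp53 itself differed by -0.82 ± 0.20 (adjusted p = 0.000359), and the target Cdkn1a did not pass the test.

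Genes of epithelial identity and adhesion were mostly lower in 4T1. Of 30 tested junction and polarity genes 24 were lower and 2 higher, with a median of -1.52, and of 23 luminal genes 15 were lower and 4 higher, with a median of -1.88. Cdh1, E-cadherin, measured 165, 231, 191, 142 and 186 CPM in the 4T1 libraries, against 299 to 330.3 CPM with a median of 313 CPM in 2153, a modest gap with no overlap (-0.79 ± 0.20, adjusted p = 0.000452). Cldn4, a tight junction claudin, was one of the 2 higher genes, at 133 to 453 CPM in 4T1 and 16.6 to 66.1 CPM in 2153 (2.46 ± 0.39, adjusted p = 1.93e-07), while Cldn1, Cldn3 and Cldn7 were lower, at -3.25, -3.12 and -2.21. Junction genes therefore did not move as one.

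The transcription factors of the mammary lineages were split between the models. Gata3, which maintains luminal cells, measured 116, 109, 114, 123 and 133 CPM in the 4T1 libraries, against 0.949 to 2.82 CPM with a median of 1.36 CPM in 2153 (6.27 ± 0.38, adjusted p = 9.86e-24). Sox10, a factor of neural crest and of mammary stem and progenitor cells, measured 0.0960, 0.0555, 0.129, 1.16 and 0.207 CPM in the 4T1 libraries, against 389 to 739 CPM with a median of 668 CPM in 2153 (-10.99 ± 0.50, adjusted p = 7.91e-31). No library of either model came near the other for these genes. Ehf, an epithelial ETS factor, was at 0.0192 to 0.647 CPM in 4T1 and 157 to 246 CPM in 2153 (-10.05 ± 0.61, adjusted p = 1.1e-23). Foxa1, a luminal pioneer factor, was at 0.691 to 2.75 CPM in 4T1 and 48.4 to 78.1 CPM in 2153 (-5.37 ± 0.82, adjusted p = 5.23e-08). The milk protein gene Csn3, of kappa-casein, was also lower, at 0.854 to 3.92 CPM in 4T1 and 217 to 1105 CPM in 2153 (-8.50 ± 0.74, adjusted p = 2.76e-16). Of 13 tested milk protein genes 4 were lower and 9 neither, near the 27.2% of all genes that were lower. Of 20 tested basal and myoepithelial genes 9 were lower and 5 higher (3 higher against the low-numbered 2153 libraries).

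Genes of epithelial-mesenchymal transition were higher in 4T1 in 12 of 24 tested and lower in 2, with a median of 0.96. Vim, vimentin, measured 2458, 2132, 2821, 3074 and 2780.0 CPM in the 4T1 libraries, against 215 to 520.0 CPM with a median of 321 CPM in 2153 (2.89 ± 0.29, adjusted p = 1.07e-13). S100a4, a calcium-binding protein tied to motility and metastasis, measured 170.4, 115, 261, 293 and 273 CPM in the 4T1 libraries, against 2.58 to 8.23 CPM with a median of 4.42 CPM in 2153 (5.53 ± 0.59, adjusted p = 1.17e-12). Both were apart in all libraries, and both are also made by the macrophages and fibroblasts whose markers were higher in 4T1. Axl, a receptor kinase, rose by 3.55 and Fn1, fibronectin, by 2.58, whereas Cdh2, N-cadherin, was at 1.17 to 1.66 CPM in 4T1 and 7.58 to 44.9 CPM in 2153 (-3.47 ± 0.44, adjusted p = 2.62e-10). Snai1 and Snai2 did not pass the test.

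Of 24 tested extracellular proteases and inhibitors, 14 were higher and 6 lower. Mmp13, a collagenase, measured 28.8, 309, 125, 53.7 and 103 CPM in the 4T1 libraries, against 1.64 to 15.6 CPM with a median of 4.81 CPM in 2153 (4.38 ± 0.71, adjusted p = 2.29e-07). The 4T1 libraries varied widely but stayed above all of 2153. The inhibitor Timp2 was higher, at 623 to 769 CPM in 4T1 and 32.6 to 84.4 CPM in 2153 (3.78 ± 0.35, adjusted p = 3.18e-15), and its relative Timp3 lower, at 26.5 to 47.2 CPM in 4T1 and 143 to 315 CPM in 2153 (-2.53 ± 0.39, adjusted p = 5.65e-08).

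**Figure D4:**
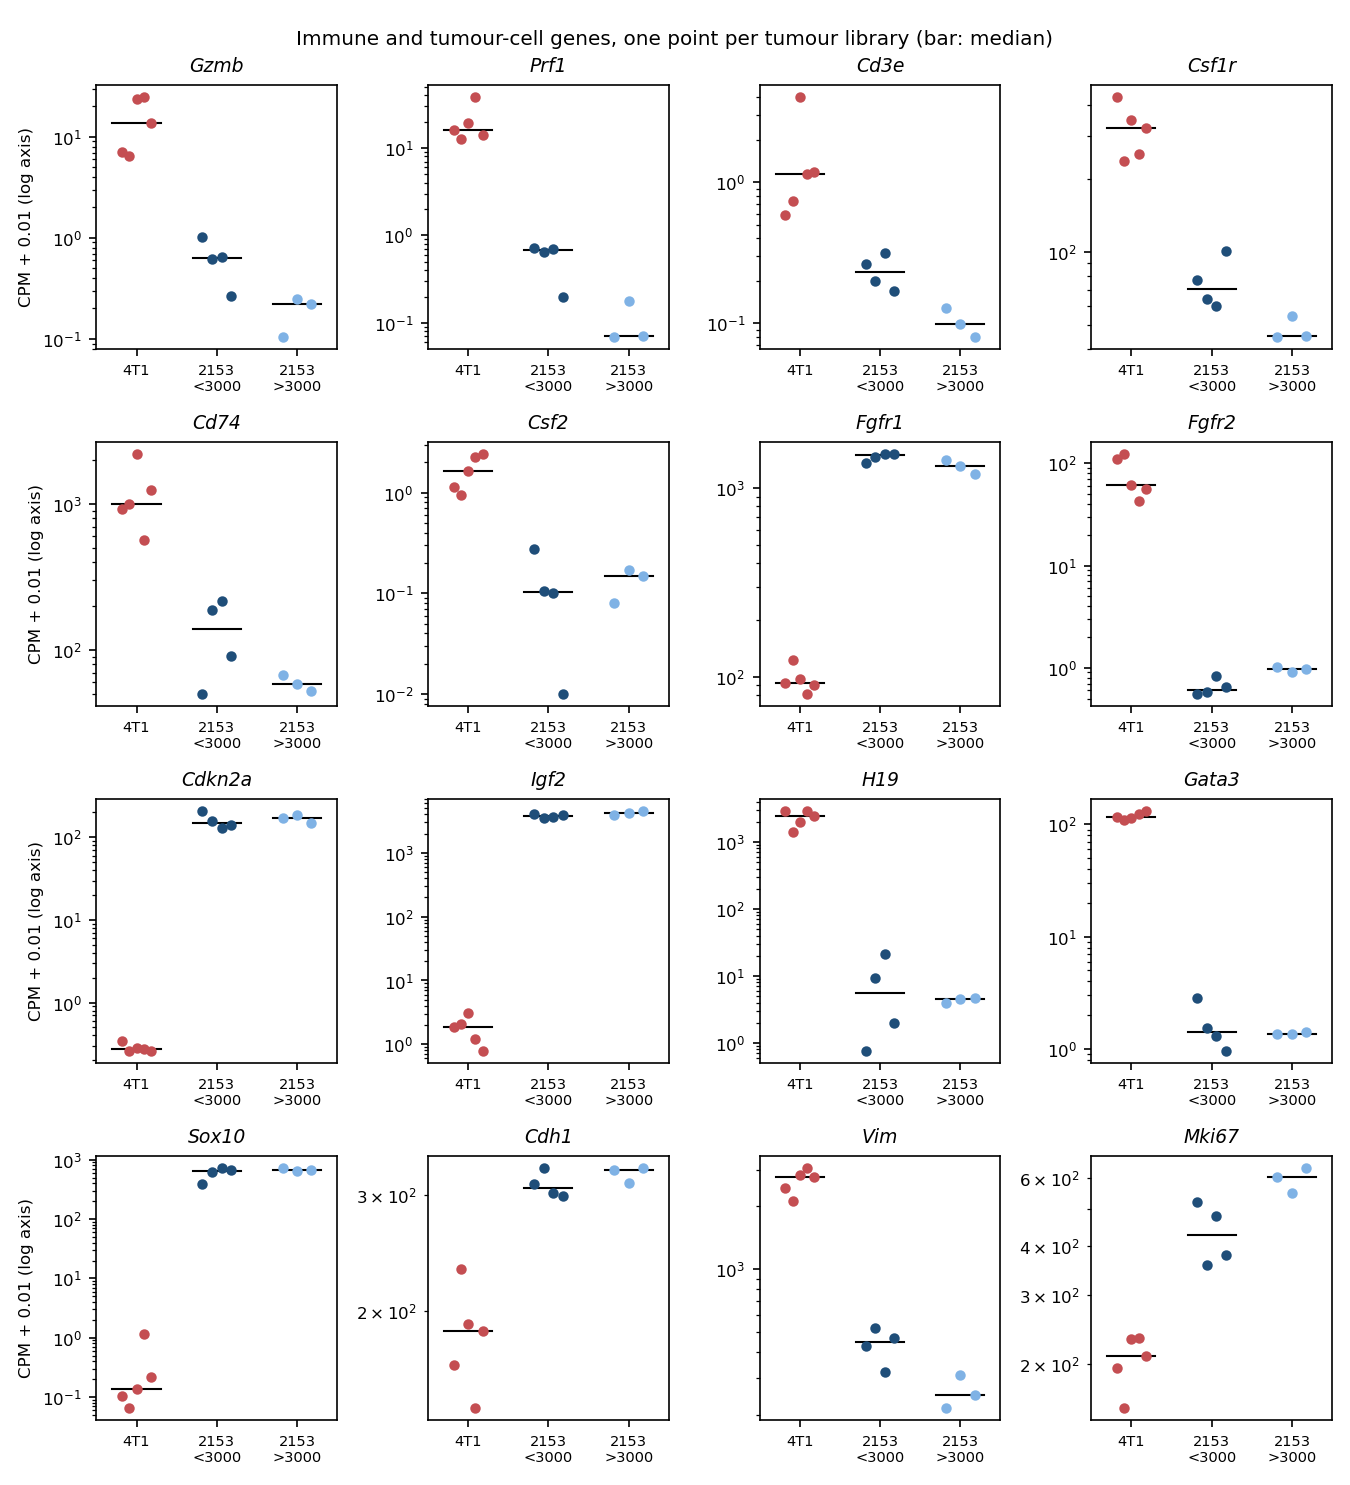
Levels of genes of lymphocytes and macrophages, and of other genes named in the text, in each library, in CPM on a log axis, with 4T1 left of 2153 in each panel. Prf1, Cd74, Fgfr2, H19, Gata3 and Vim lie higher in every 4T1 library, and Fgfr1, Cdh1, Igf2, Sox10, Cdkn2a and Mki67 lie lower.

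Other signalling lists were mixed. Of 21 tested Wnt genes 11 were higher (7 against the low-numbered 2153 libraries) and 6 lower. Wnt7a, a secreted ligand, measured 3.55, 7.60, 3.8, 2.40 and 3.94 CPM in the 4T1 libraries and had 0 counts in all 7 of 2153, at least 761-fold higher in 4T1 with a floor of 3 counts over the 7 libraries. Wnt10a was at 3.06 to 9.0 CPM in 4T1 and 0 to 0.0960 CPM in 2153 (6.98 ± 0.76, adjusted p = 1.84e-12). Of 15 tested Notch genes 3 were higher and 7 lower, with the ligand Dll1 at 11.4 to 14.4 CPM in 4T1 and 105 to 159 CPM in 2153 (-3.37 ± 0.37, adjusted p = 3.23e-12). Of 15 tested ERBB receptors and ligands 5 were higher and 6 lower (3 lower against the high-numbered 2153 libraries), with Erbb3 at 11.8 to 39.7 CPM in 4T1 and 235 to 376 CPM in 2153 (-4.0 ± 0.24, adjusted p = 2.73e-24). Lists of metabolism and stress leaned lower: 10 of 15 cholesterol and fatty acid genes were lower and 1 higher, with the desaturase Scd1 at 35.5 to 93.8 CPM in 4T1 and 739 to 2417 CPM in 2153, and 11 of 20 stress genes were lower and 2 higher, with the quinone reductase Nqo1 at 2.89 to 3.94 CPM in 4T1 and 24.2 to 38.7 CPM in 2153. Vegfa, the main growth factor of vessels, was lower too, at 77.1 to 138 CPM in 4T1 and 289.9 to 942 CPM in 2153 (-2.19 ± 0.54, adjusted p = 0.000403), although 10 of 18 endothelial genes were higher.

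**Figure D5:**
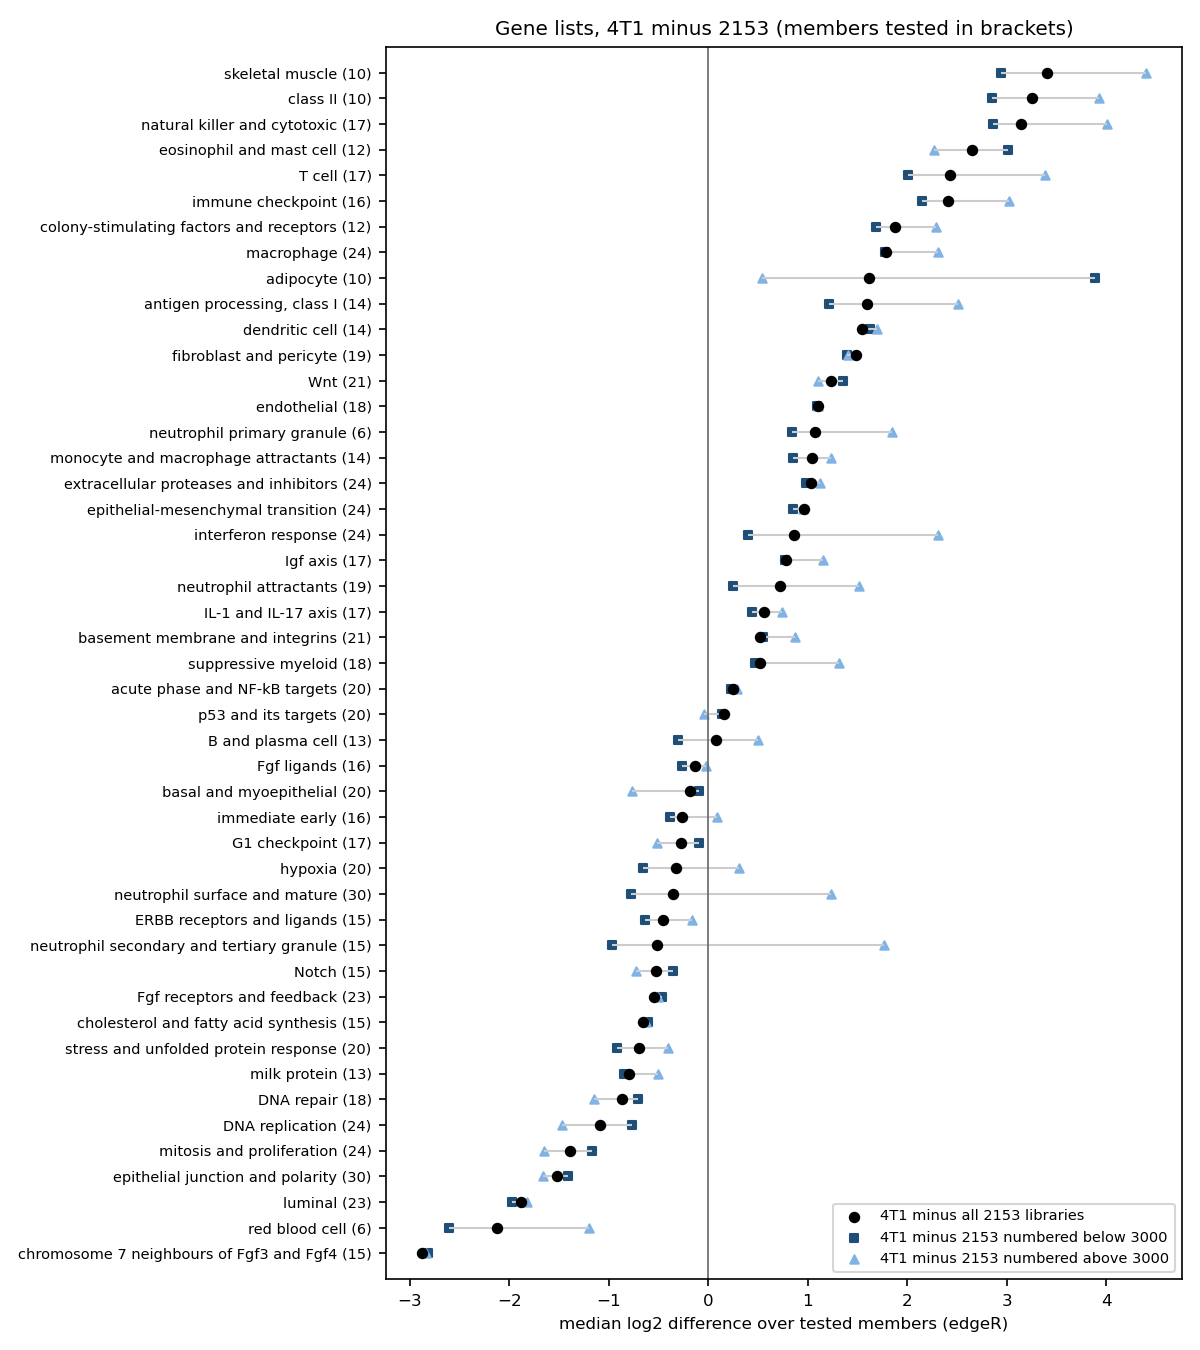
Median log2 difference, 4T1 minus 2153, of each gene list, given for all 2153 libraries and for the high-numbered and low-numbered ones alone. Over all 2153 libraries the skeletal muscle, class II and cytotoxic lists stand highest and the chromosome 7 neighbours, red blood cell and luminal lists lowest, and against the low-numbered libraries alone the adipocyte list, at 3.88, stands highest. The lists of later granule genes and of surface genes of neutrophils change side with the library number. So do those of hypoxia, immediate early, B and plasma cell and p53 genes.

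The genes with the widest gaps among all genes tested, 12 each way, were mainly not immune. Higher in 4T1 was first Gpa33, a surface antigen of intestinal epithelium, which measured 215, 198, 166, 178 and 173 CPM in the 4T1 libraries, against 0 to 0.0723 CPM with a median of 0.0126 CPM in 2153 (13.15 ± 0.80, adjusted p = 1.1e-23). Msln, mesothelin, a surface protein of mesothelium and several carcinomas, was at 32.1 to 72.0 CPM in 4T1 and 0 to 0.101 CPM in 2153 (10.80 ± 0.90, adjusted p = 3.45e-17). Tmprss11e, a membrane-bound serine protease, was at 92.7 to 147 CPM in 4T1 and 0 to 0.139 CPM in 2153 (11.11 ± 0.90, adjusted p = 2.01e-17). Rhox4a2, a reproductive homeobox gene with near copies beside it, had 0 counts in 2153 and was at least 956-fold higher in 4T1 with the same floor. The rest were the developmental regulators Eya1 (10.56) and Dmbx1 (8.14), the protease gene Tmprss6 (8.88), the proton channel gene Otop1 (7.95), H19, and the lymphocyte genes Gzmf, Gzmg (7.82) and Fcrl6 (7.75). Lower in 4T1, beside the 3 Fgf genes, were Sez6, known from neurons (-13.11), Fam150b, a ligand of the ALK receptor (-12.81), the amino acid transporter gene Slc6a15 (-12.71) and the protease gene Adamts18 (-12.66). Slc6a14, another amino acid transporter, had 0 counts in 4T1 and was at least 995-fold lower there. Gpx2, a glutathione peroxidase, had 3 counts in 4T1, a 2153 to 4T1 ratio of 12008 (4109 to 58230.4), and Adcy8, an adenylyl cyclase, also 3, a ratio of 10587 (3622 to 51340). Dcpp1 and Dcpp2, salivary proteins that are near copies of each other and so uncertain, had 2 counts each in 4T1.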

How the data were processed

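RNA-seq of mouse mammary tumours was analysed from a gene table of expected counts (estimated counts per gene) that the authors deposited. STAR, SAMtools, Picard and Salmon with build mm10 were used, per the submitters' processing notes, and their roles and versions are not given in the sources used here. The authors' normalized signal, in another deposited table, served 1 alternative only, as log2 of the value + 1. Whether counting used strand is not stated.

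Expected counts of 47480 genes in 82 libraries were rounded to whole numbers. Genes were kept by filterByExpr with a minimum count of 10 and a total of 15, which left 22847, and libraries were scaled by TMM. One model with a mean for each of the 13 models (69 residual degrees of freedom) was fitted with edgeR 4.0.16 (robust quasi-likelihood, R 4.3.3), and 4T1 minus 2153 was taken as a contrast. Adjusted p-values are Benjamini-Hochberg values over all genes tested. Standard errors were obtained from each log2 difference and its F statistic, and CPM is the count scaled to 1e6 of effective library size. The pipeline was tested on simulated data. Replicate numbers follow accession order and pair nothing. Within both models, replicates differed by more than counting noise, so none was merged. Floors (3 counts) and 95% exact intervals of ratios cover counting error only, and reads without molecular identifiers are not independent molecules.

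The members and the 47 lists (814 symbols listed, 798 tested) were chosen with earlier results of these data known, so no list is independent support. Genes outside the lists were named by rule: adjusted p under 0.05, no overlap, a mean of at least 5 CPM in the higher model, and the 12 largest differences each way, leaving out predicted genes and receptor segments. Genes with individual statistics beyond these are list members. Alternatives were DESeq2 1.42.0 and its size factors, limma 3.58.1 on the authors' table, no filter, the 12 libraries alone, either set of 2153 library numbers, each library left out, a minimum difference of 1, and, chosen after seeing the data, 2153 with 2 means. A few list members are not reported here. Promoter letters are RefSeq's for GRCm38.p6.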

Additional observations from a re-analysis of the deposited data

Results flagged for a closer look

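Dixon's test sets the gap between a library and its nearest neighbour against the range of the model. It flagged single libraries in 29 of 137 sets of values examined (21.2%). Its rate of about 5% by chance holds for normally distributed values, which CPM need not be. Where all counts of a model lay in 1 library, as for Fgf4 and Fgf15 in 4T1, a flag was certain. The share is therefore no measure of an excess of outlying libraries. All values are CPM, given with the nearest other library where that helps.

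In 4T1 replicate 4 the cytotoxic genes were highest, with Gzmf at 189.7 (the next library 78.2), Gzmg at 207 (the next 81.2), Prf1 at 38.7 and Fcrl6 at 16.6. The same library held the few counts that 4T1 had of genes abundant in 2153: Fgf4 0.0127, Fgf15 0.0127, Gpx2 0.0381 and Dcpp1 0.0254, with the other 4T1 libraries at 0. It was also highest among 4T1 libraries for Sox10 (1.16) and Wfdc18 (0.914). How those reads arose was not tested.

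In 4T1 replicate 3 Cd3e was at 4.05, Cd8a at 5.63 and Cd274 at 53.2, each the highest of 4T1. In 4T1 replicate 2 Eya1 was at 34, Tmprss6 at 31.9, Retnlg at 8.0, Cd200 at 14.9 and Padi4, its lowest value in 4T1, at 339. In 4T1 replicate 1 Cdkn2a was at 0.336 and Hbb-bs, its lowest value, at 35.6.

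In 2153 replicate 1 Otop1 was at 0.101, Dcpp1 at 116 (the next 46.5), Dcpp2 at 97.1, Cxcl1 at 96.4, Gata3 at 2.82 and Sox10, its lowest value in 2153, at 389. In 2153 replicate 3 H19 was at 21.4 and Gzmf at 1.30, and in replicate 7 Dmbx1 was at 0.0698.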

How the results depend on the processing

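The count of called genes stayed within 1.5 times the reported 12023 under every tool, scaling, filter, library set and left-out library tried (11263 to 11860 without single libraries, 5429 to 5720 higher and 5819 to 6219 lower), and fell to 7502 when a difference of at least 1 on the log2 scale was also asked, 3839 higher and 3663 lower. The neutrophil lists depended on the 2153 library number. Against the high-numbered libraries 19 members were higher and the median was 1.51, with positive differences for Ly6g (1.51), S100a8 (0.51), S100a9 (0.72), Csf3r (0.11), Retnlg (2.34), Mmp8 (1.40), Ngp (3.13) and Camp (1.68). Against the low-numbered ones 8 members were lower, and Cxcl2 was at -0.15. The median was 0.11 when limma was run on the normalized signal, with Retnlg at 0.35 and Ngp at 0.32, and 0.33 with 2153 given 2 means, with Retnlg at 0.60, Mmp8 at 0.12, Ngp at 0.62 and Camp at 0.077. The cause was not tested. Without single libraries it lay between -0.39 and -0.09, with 10 to 11 members higher and 4 lower. By the median over markers in place of the sum, 4T1 ranked 2 and 2153 ranked 1 among the models, where the sum gave 4 and 3. Left-out libraries moved the summed marker level to 130.8 to 153.7 CPM in 4T1 and 182.6 to 261 CPM in 2153. No paired analysis was possible because the labels give no replicate number shared between the models. Depth set no limit on the named genes above their floors, and 0 or few counts are given as bounds.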

Other observations

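Dendritic cell genes were higher in 4T1 in 8 of 14 tested and lower in 1, Batf3 (-1.04), whose call was lost in 8 of the 12 fits that left out a library. Ccl22, a chemokine that mature dendritic cells release to attract regulatory T cells, measured 6.20, 3.71, 11.4, 14.4 and 18.3 CPM in the 4T1 libraries, against 0.0316 to 0.208 CPM with a median of 0.0756 CPM in 2153 (6.54 ± 0.90, adjusted p = 2.98e-09 in edgeR's test). Of 19 tested fibroblast and pericyte genes 11 were higher and 1 lower, and of 21 basement membrane and integrin genes 9 were higher and 3 lower. The collagen receptor subunit Itga2 was at 25.0 to 50.9 CPM in 4T1 and 1.77 to 3.86 CPM in 2153 (3.84 ± 0.48, adjusted p = 1.42e-10).

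Of 20 tested acute phase and NF-kappaB target genes 7 were higher and 6 lower (3 lower without 4T1 replicate 1 or 2, or against the high-numbered 2153 libraries). Vcam1, an adhesion molecule for leukocytes, was at 111 to 174 CPM in 4T1 and 10.3 to 18.1 CPM in 2153 (3.47 ± 0.40, adjusted p = 8.46e-12). Of 20 tested hypoxia genes 3 were higher (5 against the high-numbered and 1 against the low-numbered libraries) and 5 lower, and of 16 immediate early genes 1 was higher and 4 lower, with the nuclear receptor gene Nr4a1 at 18.3 to 19.5 CPM in 4T1 and 85.4 to 197 CPM in 2153 (-2.98 ± 0.28, adjusted p = 3.15e-15). The lower counts of the hypoxia and immediate early lists were no larger shares than the 27.2% of all genes. Of 13 tested milk protein genes 0 were higher and 4 lower, again near that share, and of 10 adipocyte genes 0 were higher and 1 lower. Against the low-numbered 2153 libraries 3 adipocyte genes were higher, with a median of 3.88, and for 6 of the 10 every low-numbered library lay below every high-numbered one.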
